A study of Mus musculus with 2 samples.

Results

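The genes described here are 9 regulators of entry into and exit from the cell cycle in G1, chosen by name from the deposited gene table: the D-type cyclins Ccnd1, Ccnd2 and Ccnd3, their kinases Cdk4 and Cdk6, cyclin E1 (Ccne1), the inhibitors p21 (Cdkn1a) and p27 (Cdkn1b), and the transcription factor Myc. All 9 were found among the 27514 genes of the table. They were measured by single-cell RNA-seq in dorsal aorta endothelium of mouse embryos at embryonic day 10.5. The parents were Sp3+/- on both sides and the strain was C57Bl6/J x B6129SF1/J. The SP3-null library came from embryos without SP3, a zinc finger factor that binds GC-rich DNA, and the wild-type library from embryos of the same kind of matings. Cells were pooled by genotype and sorted as Ter119-, CD41 low or negative, CD31+ CD144+ ESAM+ cells. A 3' kit then counted transcripts by unique molecular identifiers (UMIs). With 1 SP3-null and 1 wild-type library, genotype, embryo pool and library cannot be told apart. The sources used here do not state how many embryos went into a pool. No difference between the libraries has a replicate check, and no test was made. Every interval below is an exact 95% interval that covers counting error only.

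D-type cyclins are made in answer to growth signals and switch on CDK4 and CDK6. These kinases start the phosphorylation of the retinoblastoma protein, which holds back E2F factors, and cyclin E with CDK2 completes it so that DNA synthesis can begin. The inhibitors p21 and p27 restrain the cyclin and CDK complexes, p21 as a target of p53 among other inputs, and MYC drives growth and ribosome production. In the embryonic aorta, hemogenic endothelium (HE) arises from arterial endothelium (AE) and gives rise to intra-aortic clusters (IAC) of blood cells.

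The libraries held 3954 SP3-null and 4451 wild-type cells. Each cell carries a deposited class: AE, in a Wnt-high and a Wnt-low group, conflux AE, pre-HE, HE, IAC, Wnt-high and Wnt-low venous endothelium (VE), and other endothelium. The deposited table holds 922 SP3-null and 939 wild-type AE cells, well above the number of arterial cells in the study's own listing, and the reason was not tested. AE was used as deposited. The classes on the way to blood are small, with 145 SP3-null and 188 wild-type conflux AE cells, 92 SP3-null and 136 wild-type pre-HE cells, 40 SP3-null and 59 wild-type HE cells, and 107 SP3-null and 128 wild-type IAC cells. The median depth of a class lay between 8850 and 30343 UMIs per SP3-null cell and between 9248.5 and 31009 UMIs per wild-type cell, lowest in conflux AE and highest in IAC. Levels are therefore given as CPM, a gene's counts scaled to a common total of UMIs per class. The class names were checked against marker lists. The endothelial genes Pecam1, Cdh5, Esam, Kdr and Tek had their highest sum in pre-HE and their lowest in IAC, at 354 CPM in SP3-null and 353 CPM in wild-type cells. The hemogenic genes Runx1, Gfi1, Spi1 and Myb summed to 528 CPM in SP3-null HE, 614 CPM in wild-type HE, 700 CPM in SP3-null IAC and 684 CPM in wild-type IAC, against at most 11.1 CPM elsewhere. Sp3 itself stood at 35.6 CPM in SP3-null and 46.3 CPM in wild-type cells of the endothelial sum, which is the total over AE, VE, conflux AE and pre-HE. Its log2 ratio was -0.38 (-0.48 to -0.28), and whether its 3' tags lie in the deleted part was not tested.

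For 6 of the 9 genes the RefSeq promoter table (build GRCm38.p6) holds the bases before an annotated transcript start. Each window of 250 bases was searched on both strands for GGGCGG, the GC box that SP factors bind. They were also searched for CACGTG, the E-box that MYC binds with its partner MAX, which reads the same on both strands. Of all 32851 promoter windows of that length in the table, 10756 (32.7%) held the GC box and 1978 (6.02%) the E-box. The windows of Cdk4 and Ccne1 are shown because they held the most matches among the 6 genes, and those of Cdkn1a and Cdkn1b because these inhibitors were counted higher in the SP3-null library. The motifs did not overlap in any of them. The Cdk4 window (chr10:127063285-127063534, plus strand) held 4 E-boxes, in capitals, beside 1 GC box that is left in lower case. The Ccne1 window (chr7:38107491-38107740, minus strand) held 4 GC boxes, in capitals, and no E-box. The inner Cdkn1a start (chr17:29093519-29093768, plus strand) had 2 GC boxes and the Cdkn1b start (chr6:134920151-134920400, plus strand) had 1, again in capitals, and neither had an E-box. The outer Cdkn1a start held neither motif. Cdk6 held 1 E-box and no GC box, and the starts of Ccnd3 held 2 and 1 GC boxes and no E-box. Such matches describe the letters of the reference and were not related to any level below.
Cdk4: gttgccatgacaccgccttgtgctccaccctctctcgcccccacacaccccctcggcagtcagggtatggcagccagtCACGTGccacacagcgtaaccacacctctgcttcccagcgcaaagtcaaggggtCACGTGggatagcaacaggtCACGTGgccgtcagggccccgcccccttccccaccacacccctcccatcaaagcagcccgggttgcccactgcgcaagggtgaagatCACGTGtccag
Ccne1: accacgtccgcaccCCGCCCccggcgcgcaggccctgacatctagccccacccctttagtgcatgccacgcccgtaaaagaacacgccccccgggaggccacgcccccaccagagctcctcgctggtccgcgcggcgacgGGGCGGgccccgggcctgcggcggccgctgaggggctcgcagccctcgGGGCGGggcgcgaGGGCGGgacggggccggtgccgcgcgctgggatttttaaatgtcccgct
Cdkn1a: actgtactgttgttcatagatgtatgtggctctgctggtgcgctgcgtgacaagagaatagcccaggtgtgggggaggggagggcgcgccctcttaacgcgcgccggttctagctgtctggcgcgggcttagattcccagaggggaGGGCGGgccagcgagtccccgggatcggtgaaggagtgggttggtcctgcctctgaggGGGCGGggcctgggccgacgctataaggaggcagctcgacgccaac
Cdkn1b: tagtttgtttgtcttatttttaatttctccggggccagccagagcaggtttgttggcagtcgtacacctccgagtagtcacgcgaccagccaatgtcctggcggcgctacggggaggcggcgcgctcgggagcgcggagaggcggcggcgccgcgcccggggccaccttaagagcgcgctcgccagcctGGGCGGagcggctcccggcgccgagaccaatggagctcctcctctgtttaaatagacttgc

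Together the 9 genes made up 734 CPM in SP3-null and 710 CPM in wild-type conflux AE, the lowest sums. The highest were 1167 CPM in SP3-null and 1163 CPM in wild-type Wnt-low VE. The genes that made up the sum differed by class. The arterial and venous classes carried mostly Cdk4 and Ccnd1, HE and IAC carried mostly Cdk4 and Ccnd2, and Cdkn1a stood out in Wnt-high AE.

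**Figure D1:**
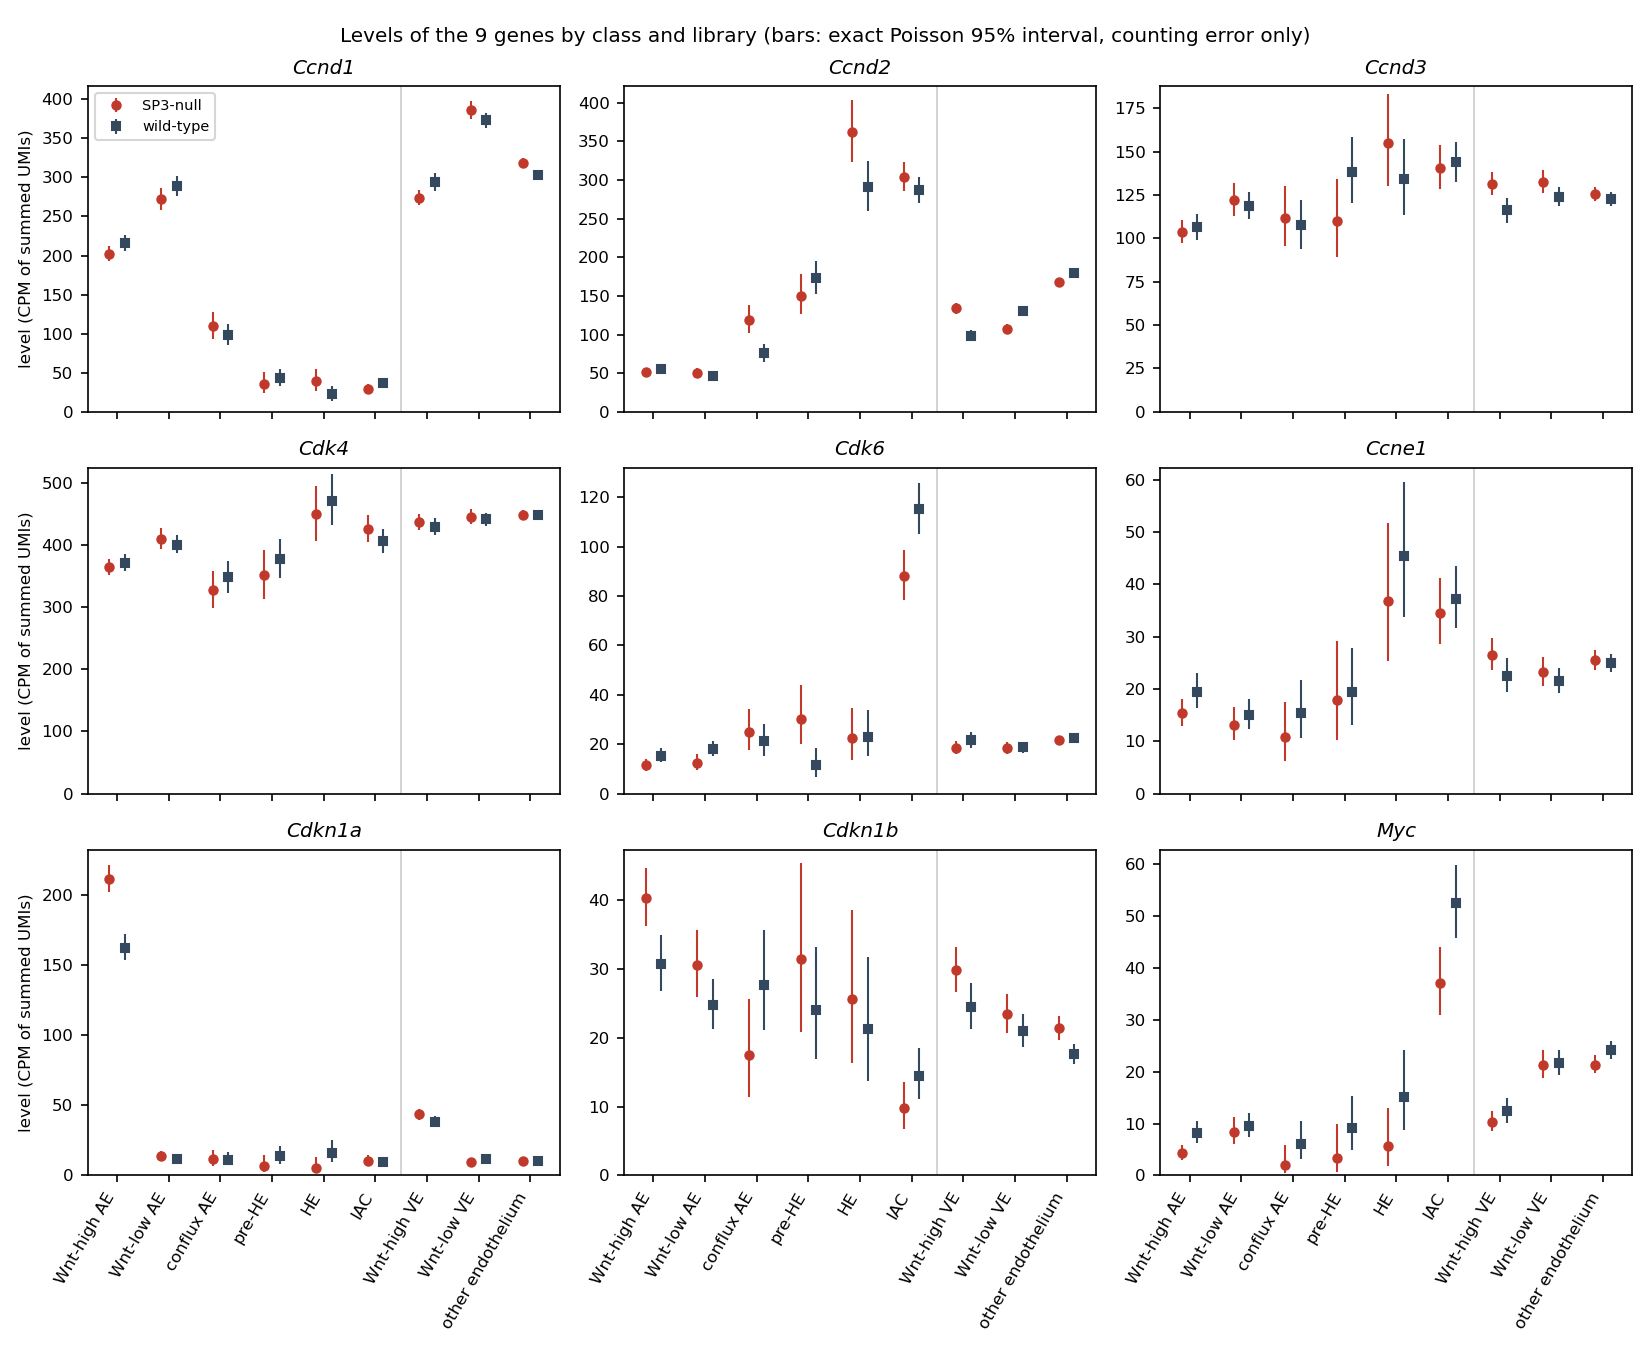
Level of each of the 9 genes in CPM of summed UMIs, by class, in the SP3-null (red circles) and wild-type (dark squares) library; bars are exact Poisson 95% intervals for counting error only, every vertical axis starts at 0, and the grey line parts the passage from AE to IAC from the other classes. Ccnd1 is low and Ccnd2 high in HE and IAC, Cdkn1a stands out in Wnt-high AE, and Cdk6 and Myc stand out in IAC.

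Ccnd1, cyclin D1, was abundant in AE and VE and scarce in every class from pre-HE onward. It stood at 202 CPM in SP3-null and 216 CPM in wild-type Wnt-high AE, at 272 CPM in SP3-null and 289 CPM in wild-type Wnt-low AE, and at 109 CPM in SP3-null against 98.1 CPM in wild-type conflux AE. In pre-HE it was 35.9 CPM in SP3-null and 42.9 CPM in wild-type cells, in HE 39.1 CPM in SP3-null and 22.2 CPM in wild-type cells, and in IAC 29.8 CPM in SP3-null and 36.3 CPM in wild-type cells. The venous and other classes were the high end of the range, with 274 CPM in SP3-null and 294 CPM in wild-type Wnt-high VE, 386 CPM in SP3-null and 373 CPM in wild-type Wnt-low VE, and 319 CPM in SP3-null and 303 CPM in wild-type other endothelium. Both libraries thus placed conflux AE between AE and pre-HE. Wnt-high AE exceeded conflux AE by 0.89 (0.66 to 1.13) log2 units in SP3-null and 1.14 (0.93 to 1.35) in wild-type cells. In wild-type cells conflux AE exceeded pre-HE by 1.19 (0.79 to 1.61). Among pre-HE, HE and IAC the order of Ccnd1 differed between the libraries, and neighbours in it did not differ beyond counting error except wild-type IAC over HE (0.71, 0.09 to 1.38). The annotation places Ccnd1 at chr7:144929931-144939831 (GRCm38.p6), overlapping LTO1. The strand setting of the counting was not given, so reads of overlapping genes cannot be told apart, which also holds for Ccnd2, Ccnd3, Cdk4 and Cdk6.

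Ccnd2, cyclin D2, ran the other way along the passage to blood. Its level was 50.9 CPM in SP3-null and 55.8 CPM in wild-type Wnt-high AE, 50.4 CPM in SP3-null and 46.0 CPM in wild-type Wnt-low AE, and 119 CPM in SP3-null and 75.6 CPM in wild-type conflux AE. Pre-HE had 150 CPM in SP3-null and 173 CPM in wild-type cells, HE had 362 CPM in SP3-null and 291 CPM in wild-type cells, and IAC had 304 CPM in SP3-null and 287 CPM in wild-type cells. HE and IAC were the highest classes in both libraries. HE exceeded IAC by 0.25 (0.07 to 0.43) log2 units in SP3-null cells, and by 0.02 (-0.16 to 0.20) in wild-type cells. Of the SP3-null HE UMIs of Ccnd2, 34.6% lay in 4 cells that also held Fabp7 or Pantr1, transcripts of neural progenitors. Without such cells HE did not exceed IAC. In SP3-null cells HE then stood at 278 CPM beside 304 CPM for IAC. In wild-type cells it stood at 277 CPM beside 283 CPM. Outside the passage, Ccnd2 was 134 CPM in SP3-null and 98.7 CPM in wild-type Wnt-high VE, 108 CPM in SP3-null and 130 CPM in wild-type Wnt-low VE, and 169 CPM in SP3-null and 179 CPM in wild-type other endothelium.

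Ccnd3, cyclin D3, was the member of the family with the least spread over classes. It ranged between 104 CPM in Wnt-high AE and 155 CPM in HE in the SP3-null library and between 107 CPM in Wnt-high AE and 144 CPM in IAC in the wild-type library, and no pair of neighbours in its order of classes differed beyond counting error in either library. Because a 3' kit counts each transcript at its end, UMIs were not divided by transcript length, and the 3 D cyclins were added to give each one's share of the D cyclin UMIs of a class. Capture can still differ between genes, so these shares are compared between classes and not read as shares of protein.

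Ccnd1 held most of the D cyclin UMIs in AE, and Ccnd2 held most of them in HE and IAC. The Ccnd1 share was 56.6% in SP3-null and 57.1% in wild-type Wnt-high AE, 61.1% in SP3-null and 63.7% in wild-type Wnt-low AE, and 32.1% in SP3-null and 34.9% in wild-type conflux AE. It came to 12.1% (8.44 to 16.7, exact binomial) in SP3-null and 12.1% (9.49 to 15.1) in wild-type pre-HE, to 7.03% (4.94 to 9.64) in SP3-null and 4.97% (3.24 to 7.25) in wild-type HE, and to 6.28% in SP3-null and 7.77% in wild-type IAC. The Ccnd2 share of the same HE cells was 65.1% in SP3-null and 65.0% in wild-type cells, against 11.3% in SP3-null and 10.1% in wild-type Wnt-low AE. HE had 0.108 Ccnd1 UMIs per Ccnd2 UMI in the SP3-null and 0.0765 in the wild-type library, against 5.39 in SP3-null and 6.28 in wild-type Wnt-low AE. All D cyclins together came to 475 CPM in SP3-null and 467 CPM in wild-type IAC, close to the 445 CPM in SP3-null and 454 CPM in wild-type Wnt-low AE. The lowest totals lay between these classes, with 296 CPM in SP3-null pre-HE and 281 CPM in wild-type conflux AE.

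**Figure D2:**
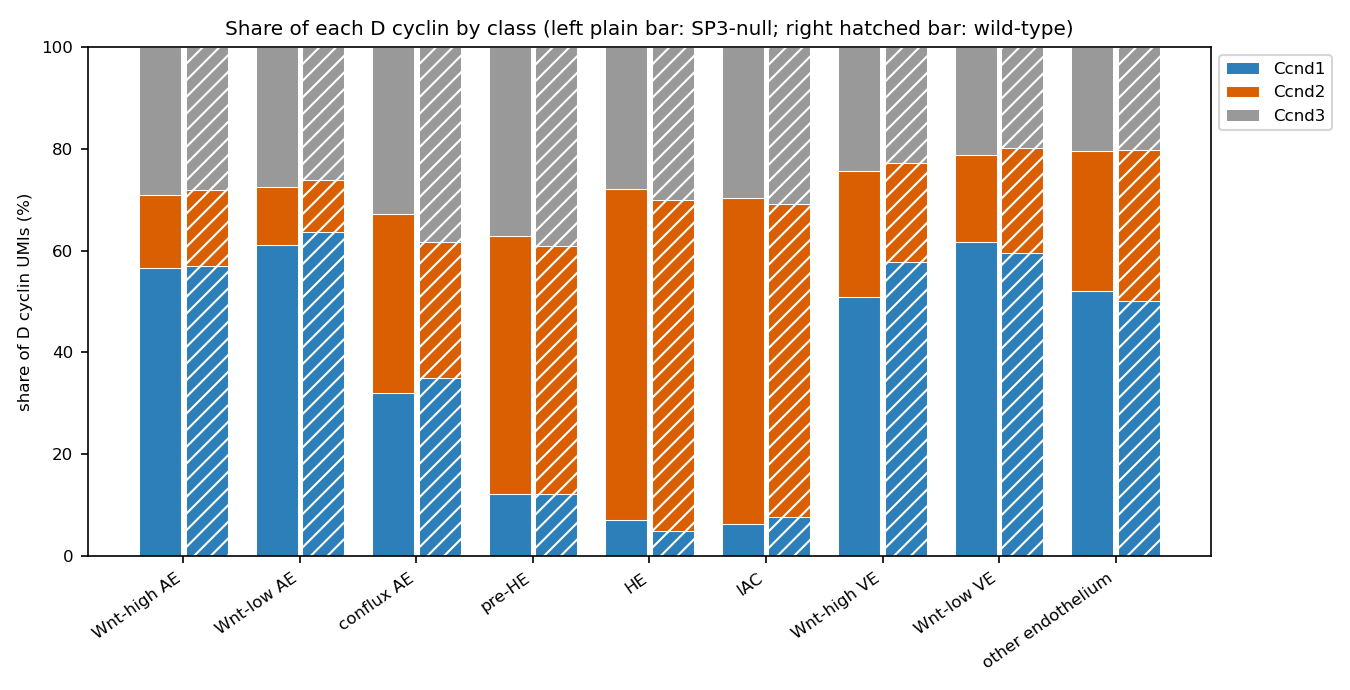
Share in percent of the summed UMIs of Ccnd1 (blue), Ccnd2 (orange) and Ccnd3 (grey) in each class; of each pair of bars, the left plain one is the SP3-null and the right hatched one the wild-type library. In Wnt-low AE the Ccnd1 share is 61.1% in SP3-null and 63.7% in wild-type cells, and in HE the Ccnd2 share is 65.1% in SP3-null and 65.0% in wild-type cells.

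The same UMIs were also counted by cell, which is not a separate source of evidence. With each cell thinned to 5000 UMIs so that deep and shallow classes could be compared, 149 of 301 SP3-null and 181 of 394 wild-type Wnt-low AE cells held a Ccnd1 UMI and no Ccnd2 UMI, whereas 17 SP3-null and 20 wild-type cells held Ccnd2 alone. In pre-HE 5 of 74 SP3-null and 4 of 102 wild-type cells held Ccnd1 alone, and 27 SP3-null and 49 wild-type cells held Ccnd2 alone. In IAC 4 of 103 SP3-null and 6 of 126 wild-type cells held Ccnd1 alone, and 50 SP3-null and 72 wild-type cells held Ccnd2 alone. Both genes were found in 23 SP3-null and 34 wild-type Wnt-low AE cells and in 10 SP3-null and 15 wild-type IAC cells. In other endothelium 404 of 1235 SP3-null and 481 of 1385 wild-type cells held both. Whether the 2 genes avoid each other within a class was not tested. Thinned cells with any Ccnd1 UMI made up 13.6% of SP3-null and 16.7% of wild-type IAC cells, against 57.1% of SP3-null and 54.6% of wild-type Wnt-low AE cells. Without thinning the shares were 37.4% of SP3-null IAC cells (median depth 30343 UMIs) and 45.3% of wild-type IAC cells (31009 UMIs), against 71.8% of SP3-null Wnt-low AE cells (14172.5 UMIs) and 70.6% of wild-type Wnt-low AE cells (13319.5 UMIs). No class lacked Ccnd1 altogether, and how much of its low share in IAC came from free RNA was not tested.

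In the classes where Ccnd2 was low, few cells carried much of it. In AE, VE and conflux AE together, the 1% of cells with the most Ccnd2 UMIs (25 cells beside 2284 others in the SP3-null and 27 beside 2476 in the wild-type library) held 37.0% of all Ccnd2 UMIs in the SP3-null and 25.7% in the wild-type library. These cells stood at 1728 CPM of Ccnd2 against 60.9 CPM in the remaining cells of the SP3-null library, and at 1156 against 69.6 CPM in the wild-type library. They also held transcripts of neural progenitors. Fabp7, a fatty acid binding protein of radial glia, was 62.7 CPM in them against 1.99 CPM in the remaining SP3-null cells, and 31.4 against 0.403 CPM in wild-type cells. Pantr1, a noncoding RNA of the developing brain, was 49.9 against 1.24 CPM in SP3-null and 36.2 against 0.403 CPM in wild-type cells. Their endothelial Pecam1 was like that of the others, 288 against 307 CPM in SP3-null and 299 against 333 CPM in wild-type cells, and their median UMI count was higher, 26367 against 14264.5 in SP3-null and 28840 against 13301.5 in wild-type cells. Whether these are doublets was not tested, and Fabp7 and Pantr1 were chosen after their values were seen.

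Levels of Ccnd2 were therefore also taken without cells that held a UMI of Fabp7 or Pantr1. Such cells were 80 of the 2401 cells of the endothelial sum in the SP3-null and 42 of 2639 in the wild-type library, and in Wnt-high VE they held 65.6% of SP3-null and 32.4% of wild-type Ccnd2 UMIs. In pre-HE and IAC they held 0% of the SP3-null Ccnd2 UMIs and up to 3.01% of the wild-type ones. Without them Ccnd2 was 35.5 CPM in SP3-null and 32.6 CPM in wild-type Wnt-high AE, and 52.3 CPM in SP3-null and 73.3 CPM in wild-type conflux AE. HE then had 278 CPM in SP3-null and 277 CPM in wild-type cells, and Wnt-high VE 49.6 CPM in SP3-null and 70.1 CPM in wild-type cells. Ccnd2 was thus still lowest in AE and high in HE. Ccnd1 UMIs per Ccnd2 UMI without these cells were 8.88 in SP3-null and 6.76 in wild-type Wnt-low AE, 2.01 in SP3-null and 1.31 in wild-type conflux AE, and 0.127 in SP3-null and 0.0719 in wild-type HE.

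**Figure D3:**
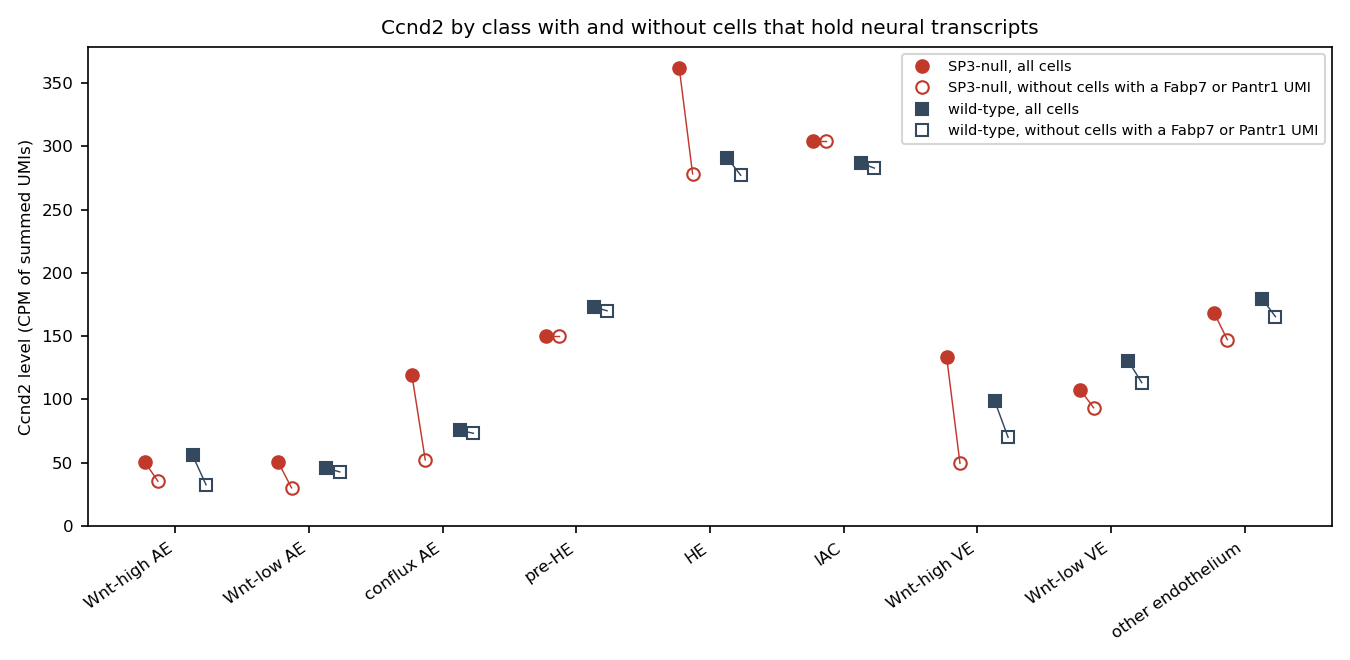
Ccnd2 in CPM of summed UMIs by class, with all cells (filled symbols) and without cells that hold a UMI of Fabp7 or Pantr1 (open symbols), for the SP3-null (red circles) and wild-type (dark squares) library. In Wnt-high VE the SP3-null level is 134 CPM with and 49.6 CPM without these cells, and the wild-type level 98.7 CPM with and 70.1 CPM without them; in IAC the symbols nearly coincide.

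Cdk4, the kinase partner of D cyclins that most cells use, was the most abundant of the 9 genes in each class and among the most even. It ranged between 327 CPM in conflux AE and 449 CPM in HE in the SP3-null library, and between 347 CPM in conflux AE and 471 CPM in HE in the wild-type library. The only neighbouring classes that differed beyond counting error were SP3-null Wnt-low AE over Wnt-high AE, by 0.17 (0.09 to 0.25) log2 units. The annotation has Tspan31 overlapping Cdk4 (chr10:127063535-127067288).

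Cdk6, the other D cyclin kinase and known for its part in blood progenitors, was low in endothelium and highest in IAC. Its level was 88.1 CPM (78.5 to 98.5) in SP3-null and 115 CPM (105 to 126) in wild-type IAC, and 22.3 CPM in SP3-null and 23.1 CPM in wild-type HE. In the other classes it lay between 11.5 CPM in Wnt-high AE and 30.3 CPM in pre-HE in the SP3-null library and between 11.7 CPM in pre-HE and 22.5 CPM in other endothelium in the wild-type library. HE, where Ccnd2 was as high as in IAC or higher with all cells, thus had Cdk6 at an endothelial level. IAC exceeded HE by 1.98 (1.33 to 2.71) log2 units in SP3-null and 2.32 (1.75 to 2.95) in wild-type cells.

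Ccne1, cyclin E1, the partner of CDK2, was higher in IAC than in AE, and in HE with all UMIs. It was 36.8 CPM (25.4 to 51.7) in SP3-null and 45.3 CPM (33.8 to 59.6) in wild-type HE. IAC had 34.4 CPM in SP3-null and 37.2 CPM in wild-type cells. AE held 15.3 CPM in SP3-null and 19.5 CPM in wild-type Wnt-high cells, and 13.1 CPM in SP3-null and 15.0 CPM in wild-type Wnt-low cells. Conflux AE was as low, with 10.8 CPM in SP3-null and 15.5 CPM in wild-type cells, and the venous classes lay between 21.5 and 26.5 CPM. HE and IAC did not differ from each other beyond counting error in either library. With cells thinned to 5000 UMIs, SP3-null HE was at 5.56 CPM, on 1 of 36 cells with a UMI, below the 14.2 CPM of SP3-null Wnt-high AE and the 11.3 CPM of SP3-null Wnt-low AE. Thinned wild-type HE was at 54.5 CPM, above the 16.5 CPM of wild-type Wnt-high AE and the 13.7 CPM of wild-type Wnt-low AE.

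Cdkn1a encodes p21, an inhibitor of CDK2 complexes that is induced in cells leaving the cycle. Among arterial cells nearly all of it lay in Wnt-high AE, with 212 CPM (202 to 221) in SP3-null and 163 CPM (153 to 172) in wild-type Wnt-high AE, against 14.0 CPM in SP3-null and 11.8 CPM in wild-type Wnt-low AE. It was next highest in Wnt-high VE, with 43.5 CPM in SP3-null and 38.3 CPM in wild-type cells, against 9.59 CPM in SP3-null and 11.9 CPM in wild-type Wnt-low VE. Conflux AE had 11.5 CPM in SP3-null and 11.3 CPM in wild-type cells, pre-HE 6.73 CPM in SP3-null and 13.7 CPM in wild-type cells, and HE 5.58 CPM in SP3-null and 16 CPM in wild-type cells. IAC had 10.3 CPM in SP3-null and 9.49 CPM in wild-type cells, and other endothelium 10.4 CPM in SP3-null and 9.99 CPM in wild-type cells. The HE values rest on 5 SP3-null and 18 wild-type UMIs. Among the classes below Wnt-high VE no neighbours in the order differed beyond counting error. Of 12 measured other targets of p53, Sesn1 and Trp53inp1 were at least 1.5-fold higher in Wnt-high than in Wnt-low AE in both libraries, beside 4.94% of 8425 genes. The summed level of that list was 476 CPM in SP3-null and 512 CPM in wild-type Wnt-high AE, against 509 CPM in SP3-null and 501 CPM in wild-type Wnt-low AE.

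Cdkn1b, which encodes p27, was low throughout and lowest in IAC. It ranged between 9.76 CPM in IAC and 40.3 CPM in Wnt-high AE in the SP3-null library, and between 14.5 CPM in IAC and 30.7 CPM in Wnt-high AE in the wild-type library. HE stood at 25.7 CPM in SP3-null and 21.3 CPM in wild-type cells, on 23 SP3-null and 24 wild-type UMIs. In the order of classes only SP3-null conflux AE over IAC (0.85, 0.05 to 1.62) and wild-type Wnt-low VE over other endothelium (0.25, 0.05 to 0.45) differed beyond counting error between neighbours.

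Myc was sparse in AE and the classes that follow it, and highest in IAC. It was 4.28 CPM in SP3-null and 8.19 CPM in wild-type Wnt-high AE, 8.34 CPM in SP3-null and 9.47 CPM in wild-type Wnt-low AE, and 2.02 CPM in SP3-null and 6.10 CPM in wild-type conflux AE, the last on 3 SP3-null and 13 wild-type UMIs. Pre-HE had 3.37 CPM on 3 SP3-null UMIs and 9.11 CPM on 14 wild-type UMIs, and HE had 5.58 CPM on 5 SP3-null UMIs and 15.1 CPM on 17 wild-type UMIs. The classes between AE and IAC thus rest on few Myc UMIs. IAC had 37.0 CPM (30.9 to 44.0) in SP3-null and 52.4 CPM (45.7 to 59.8) in wild-type cells. Wnt-high VE had 10.3 CPM in SP3-null and 12.3 CPM in wild-type cells, Wnt-low VE 21.3 CPM in SP3-null and 21.7 CPM in wild-type cells, and other endothelium 21.4 CPM in SP3-null and 24.1 CPM in wild-type cells. IAC exceeded the next class, other endothelium, by 0.79 (0.51 to 1.07) log2 units in SP3-null and 1.12 (0.90 to 1.34) in wild-type cells.

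Contrasts between classes were made within each library and are given as descriptions, since the classes were assigned from the same transcriptomes. A gene was counted where it differed at least 1.5-fold in the same direction in both libraries, over genes with at least 200 UMIs in the cells compared. In VE over AE, 2 of 9 members were higher, Ccnd2 (2.37-fold in SP3-null and 2.33-fold in wild-type cells) and Myc (2.76-fold in SP3-null and 2.07-fold in wild-type cells), beside 1.46% of 9965 genes. Cdkn1a was lower, by 5.29-fold in SP3-null and 4.03-fold in wild-type cells, beside 6.58% of genes. In conflux AE with pre-HE over AE, Ccnd2 was the 1 member higher, 2.58-fold in SP3-null and 2.29-fold in wild-type cells, beside 8.23% of 8932 genes. The 2 members lower were Ccnd1 (2.79-fold in SP3-null and 3.37-fold in wild-type cells) and Cdkn1a (14.2-fold in SP3-null and 7.07-fold in wild-type cells), beside 6.43% of genes.

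In HE over AE, Ccnd2 was 7.13-fold higher in SP3-null and 5.71-fold higher in wild-type cells and Ccne1 2.54-fold higher in SP3-null and 2.63-fold higher in wild-type cells, which makes 2 of 9 members, beside 9.46% of 8645 genes. With cells thinned to 5000 UMIs Ccne1 was no longer counted, and in SP3-null cells it lay below both AE classes. Ccnd1, 5.84-fold lower in SP3-null and 11.4-fold lower in wild-type cells, and Cdkn1a, 24.7-fold lower in SP3-null and 5.43-fold lower in wild-type cells, were the 2 members lower, beside 12.6% of genes. In IAC over AE, 4 members were higher beside 15.2% of 9072 genes: Ccnd2 (5.99-fold in SP3-null and 5.63-fold in wild-type cells), Cdk6 (7.42-fold in SP3-null and 6.90-fold in wild-type cells), Ccne1 (2.38-fold in SP3-null and 2.16-fold in wild-type cells) and Myc (6.39-fold in SP3-null and 5.94-fold in wild-type cells). The 3 members lower there were Ccnd1 (7.64-fold in SP3-null and 6.96-fold in wild-type cells), Cdkn1a (13.4-fold in SP3-null and 9.15-fold in wild-type cells) and Cdkn1b (3.76-fold in SP3-null and 1.92-fold in wild-type cells), beside 22.3% of genes. Thus 7 of the 9 members, all but Ccnd3 and Cdk4, passed 1.5-fold between IAC and AE. Against Wnt-low AE alone, Cdkn1a did not pass, with 10.3 CPM in SP3-null and 9.49 CPM in wild-type IAC against 14.0 CPM in SP3-null and 11.8 CPM in wild-type Wnt-low AE. Between IAC and HE 7 members had 200 UMIs. Of these, Cdk6 (3.95-fold in SP3-null and 4.99-fold in wild-type cells) and Myc (6.63-fold in SP3-null and 3.47-fold in wild-type cells) were higher, beside 4.83% of 5468 genes, and none was lower, beside 8.5% of genes.

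Wnt-high over Wnt-low AE set apart 1 member, Cdkn1a, which was 15.1-fold higher in SP3-null and 13.8-fold higher in wild-type cells, beside 4.94% of 8425 genes. No member was lower, beside 1.58% of genes. Wnt-high over Wnt-low VE had Cdkn1a higher by 4.54-fold in SP3-null and 3.21-fold in wild-type cells, beside 2.57% of 9072 genes, and Myc lower by 2.06-fold in SP3-null and 1.76-fold in wild-type cells, beside 1.47% of genes. Since most Cdkn1a UMIs of AE lay in Wnt-high cells, Cdkn1a was no longer counted lower in VE, in conflux AE with pre-HE, in HE or in IAC when Wnt-low AE alone was the reference.

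The comparison of genotypes asks which of these genes differ where SP3 is missing. In the endothelial sum, counting a gene where its level differed at least 1.2-fold with the counting interval on the same side, 2 of the 9 members were higher in the SP3-null library, beside 3.49% of 10146 genes, and 1 was lower, beside 8.1% of genes. Cdkn1a was 65.3 CPM in SP3-null and 43.6 CPM in wild-type cells, a log2 ratio of 0.58 (0.50 to 0.67). Cdkn1b was 29.9 CPM in SP3-null and 24.5 CPM in wild-type cells, 0.29 (0.17 to 0.41). Myc was 11.5 CPM in SP3-null and 14.0 CPM in wild-type cells, -0.28 (-0.46 to -0.11). Both inhibitors of the list were thus on the high side and Myc on the low side in the SP3-null library. The 3 other CDK inhibitors measured lay below 0 instead, with a median of -0.16, and 0 of them were counted, beside the same shares of all genes.

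The cyclins and kinases differed less. The log2 ratios were -0.04 (-0.08 to -0.01) for Ccnd1, 0.02 (-0.05 to 0.08) for Ccnd2, 0.06 (0.00 to 0.12) for Ccnd3 and 0.00 (-0.03 to 0.03) for Cdk4, so the interval of Cdk4 reached 0.03 log2 units to either side. Cdk6 was at -0.15 (-0.31 to -0.00) and Ccne1 at 0.04 (-0.10 to 0.18). The median over the 9 members was 0.02, against -0.02 over all 10146 genes, 95% of which lay between -0.52 and 0.33.

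**Figure D4:**
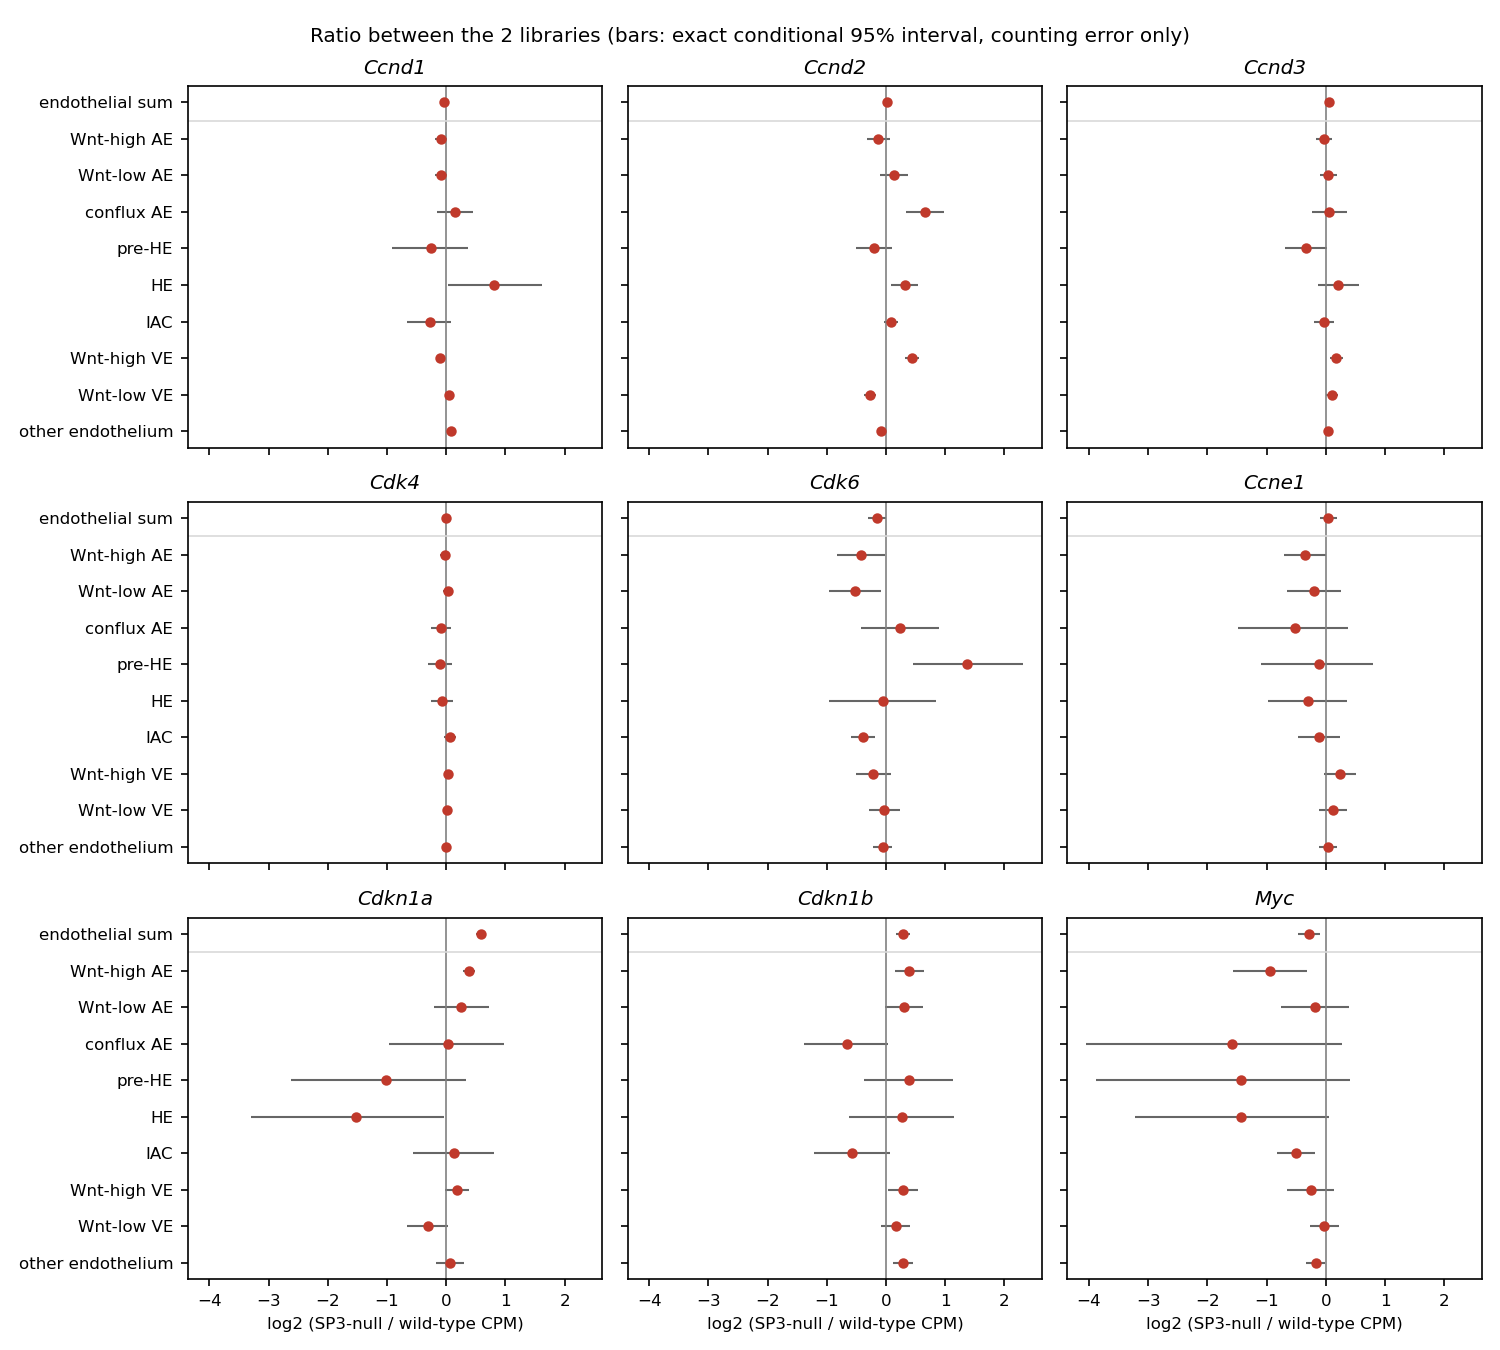
Log2 ratio of the SP3-null over the wild-type level of each gene, in the endothelial sum (top row) and in each of 9 classes; points are ratios of CPM, bars exact conditional 95% intervals for counting error only, and the vertical line marks equal levels. Cdk4 lies near 0 in every class, Myc lies below 0 in 9 of 9 classes, and Cdkn1a lies at 0.38 in Wnt-high AE and -1.52 in HE.

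Wnt-high AE held 1879 of the 2574 SP3-null and 1191 of the 1834 wild-type Cdkn1a UMIs of the endothelial sum. Within Wnt-high AE the ratio was 0.38 (0.28 to 0.49), and it was 0.23 (0.11 to 0.34) without the 5% of cells with the most UMIs, 0.39 without the 1% of cells with the most Cdkn1a UMIs and 0.32 without cells holding Fabp7 or Pantr1. Wnt-high cells were also a larger share of AE, 574 of 922 cells or 62.3% (59.0 to 65.4) in the SP3-null and 467 of 939 cells or 49.7% (46.5 to 53) in the wild-type library. Over both AE classes the ratio was 0.67 (0.57 to 0.77). In Wnt-low AE the ratio was 0.25 (-0.21 to 0.72) and in Wnt-high VE 0.19 (-0.02 to 0.39). When each class was given the same weight, the ratio was 0.25 and under 1.2-fold. HE went the other way, on 5 SP3-null and 18 wild-type UMIs, at -1.52 (-3.30 to -0.04), an interval that spanned 0 without cells holding Fabp7 or Pantr1 (-1.53, -3.57 to 0.10).

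The Cdkn1b ratio lay above 0 in 7 of 9 classes, with the interval above 0 in 3 of them, Wnt-high AE (0.39, 0.15 to 0.64), Wnt-high VE (0.29, 0.03 to 0.54) and other endothelium (0.28, 0.11 to 0.45). Conflux AE (-0.66, -1.39 to 0.03) and IAC (-0.57, -1.22 to 0.06) lay below 0 with intervals that spanned it. Over the endothelial sum the ratio was 0.01 (-0.23 to 0.25) when each cell was thinned to 5000 UMIs.

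The Myc ratio lay below 0 in 9 of 9 classes, with the interval below 0 in Wnt-high AE (-0.94, -1.56 to -0.33), IAC (-0.50, -0.83 to -0.18) and other endothelium (-0.17, -0.33 to -0.02). The ratios ranged between -1.59 in conflux AE, on 3 SP3-null and 13 wild-type UMIs, and -0.03 in Wnt-low VE. With cells thinned to 5000 UMIs the ratio of the endothelial sum was -0.15 (-0.54 to 0.23), under 1.2-fold. In IAC, macrophage markers summed to 200 CPM in SP3-null and 123 CPM in wild-type cells, and without cells holding 3 or more UMIs of them the Myc ratio was -0.73 (-1.08 to -0.39). Immediate early and heat shock genes, which cells can raise while being dissociated, summed to 994 CPM in SP3-null and 1526 CPM in wild-type IAC and to 688 CPM in SP3-null and 811 CPM in wild-type other endothelium. In the endothelial sum 3 of the 9 measured genes of this list were lower in the SP3-null library, beside 8.1% of all genes. None was higher, beside 3.49%, and the list median was -0.09. Their part in the Myc ratio was not tested.

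The ratio of Ccnd2 changed sign in some classes with the few cells that held neural transcripts. With all cells it was 0.66 (0.34 to 0.98) in conflux AE, 0.44 (0.32 to 0.56) in Wnt-high VE, 0.32 (0.09 to 0.54) in HE and -0.28 (-0.38 to -0.17) in Wnt-low VE. Of the 177 SP3-null Ccnd2 UMIs in conflux AE 83 lay in 1 cell, and of the 1490 in Wnt-high VE 336 lay in 1 cell. Without cells holding Fabp7 or Pantr1 it was -0.49 (-0.91 to -0.08) in conflux AE, -0.50 (-0.67 to -0.33) in Wnt-high VE, 0.01 (-0.26 to 0.27) in HE and -0.28 (-0.39 to -0.17) in Wnt-low VE. In the endothelial sum it was then -0.39 (-0.47 to -0.31), past the 1.2-fold rule. The neural markers Sox2, Pax6, Map2, Tubb3 and Nes summed to 275 CPM in SP3-null and 160 CPM in wild-type HE. Without the 1% of cells of each class with the most Ccnd2 UMIs the endothelial sum was at -0.22 (-0.30 to -0.14), under 1.2-fold, and without cells holding Sox2, Pax6, Map2 or Tubb3 at -0.05. No direction between the genotypes is therefore given for Ccnd2.

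In the remaining cyclins and kinases, ratios stood apart from 0 in some classes, in HE and pre-HE on few UMIs. Ccnd1 was at 0.81 (0.03 to 1.62) in HE, on 35 SP3-null and 25 wild-type UMIs, and at -0.15 (-0.21 to -0.08) over both AE classes. In HE the female-expressed Xist was 308 CPM in SP3-null and 692 CPM in wild-type cells, and 4 Y-linked genes summed to 117 CPM in SP3-null and 32.9 CPM in wild-type cells, and the part of the embryos' sexes in the HE ratios was not tested. Cdk6 was at -0.49 (-0.78 to -0.20) over both AE classes and at -0.39 (-0.60 to -0.18) in IAC, where it was -0.36 without cells holding macrophage markers, and at 1.37 (0.46 to 2.32) in pre-HE, on 27 SP3-null and 18 wild-type UMIs (0.95, -0.92 to 2.95, with cells thinned). Ccne1 was at -0.35 (-0.70 to -0.00) in Wnt-high AE and 0.18 (0.01 to 0.36) over both VE classes, and Ccnd3 at 0.18 (0.06 to 0.30) in Wnt-high VE.

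Other genes of the same pathway were read from lists. Of the other CDK inhibitors, 3 were measured and 0 passed the 1.2-fold rule between the libraries, beside 3.49% of all genes higher and 8.1% lower. The most abundant, Cdkn1c, which encodes p57, was highest in conflux AE, with 2587 CPM in SP3-null and 2324 CPM in wild-type conflux AE, against 387 CPM in SP3-null and 405 CPM in wild-type Wnt-high AE and 507 CPM in SP3-null and 343 CPM in wild-type IAC. In the endothelial sum its ratio was -0.06 (-0.09 to -0.03). Of the other G1 cyclin and CDK genes, 6 were measured and 0 passed the 1.2-fold rule between the libraries, beside the same shares of all genes. Between classes, 1 of these 6 genes (Cdk2) was higher in HE than in AE, beside 9.46% of all genes. In IAC 2 of 6 (Ccne2, Cdk2) were higher than in AE, beside 15.2% of all genes. In both contrasts 0 of 6 were lower, beside 12.6% of all genes in HE and 22.3% in IAC.

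The mitosis genes were low in conflux AE and pre-HE. Between the libraries 0 of 20 passed the 1.2-fold rule, beside 3.49% of all genes higher and 8.1% lower, with a median of -0.04. All 20 of them were at least 1.5-fold lower in conflux AE with pre-HE than in AE in both libraries, beside 6.43% of all genes. Their medians were -0.93 in SP3-null and -1.01 in wild-type cells. Of 18 S phase genes 7 were lower too (medians -0.51 in SP3-null and -0.68 in wild-type cells), beside the same 6.43%. Summed mitosis genes were 1292 CPM in SP3-null and 983 CPM in wild-type conflux AE, against 2804 CPM in SP3-null and 3006 CPM in wild-type IAC. In HE and IAC 0 of 20 mitosis genes were lower than in AE, beside 12.6% of all genes in HE and 22.3% in IAC. Notch signalling is known to hold arterial cells in G1. The list of Notch pathway genes and arterial connexins had 7 of 8 members higher in conflux AE with pre-HE than in AE, beside 8.23% of all genes. In IAC 6 of 7 measured members of that list were lower than in AE, beside 22.3% of all genes. The study scored arterial cells with Notch1, Notch4, Dll4 and Gja5, among other genes, and describes pre-HE by Notch targets such as Hey2. These counts were therefore partly set by how the classes were defined. The part of Notch in the mitosis levels was not tested.

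Pocket proteins, which the D cyclin kinases phosphorylate, and the E2F and DP factors that they hold back had 3 of 11 measured members higher in HE than in AE (Rbl1, E2f5, Tfdp2), beside 9.46% of all genes, and 1 lower (E2f7), beside 12.6%. In IAC 5 of 12 were higher (Rbl1, E2f1, E2f4, E2f8, Tfdp1), beside 15.2% of all genes, and 2 were lower (Rb1, E2f7), beside 22.3%. Between the libraries 1 of 13 measured genes, Rb1, was counted higher in SP3-null cells (0.27, 0.11 to 0.42), beside 3.49% of all genes. E2f8 was the 1 counted lower (-0.41, -0.60 to -0.22), near the 8.1% of all genes. The median of this list was -0.03. Nucleolar genes that MYC is known to drive, such as Ncl and Npm1, were higher in IAC than in AE in 13 of 14 cases, beside 15.2% of all genes. Their medians there were 1.47 in SP3-null and 1.29 in wild-type cells. In HE 9 of 13 were higher than in AE, beside 9.46% of all genes, while 6 of 13 were lower in conflux AE with pre-HE, beside 6.43%. Of the MYC network list, 2 of 8 measured genes were higher in HE than in AE, beside 9.46% of all genes. These were Mnt and Mycn, the relative of Myc that embryonic cells use. Mxd3 was lower, beside 12.6%. In IAC 1 of 9 was higher (Mycn), beside 15.2%, and 2 were lower (Mxd3, Mxd4), beside 22.3%. In conflux AE with pre-HE Mxd4 was higher, beside 8.23%, and Mycn lower, beside 6.43%. Between the libraries the ratios of 13 of the 14 nucleolar genes lay below 0 in the endothelial sum. The share of all genes below 0 was not taken. The list median was -0.09, against -0.02 over all 10146 genes. Cad was the 1 of 14 counted lower, at -0.29 (-0.42 to -0.15), beside 8.1% of all genes. Odc1, the polyamine enzyme, was the 1 counted higher, at 0.35 (0.32 to 0.39), beside 3.49% of all genes.

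Of the MYC network, 9 of 10 genes were measured. Mxi1, which competes with MYC for MAX, was the 1 gene counted higher in the SP3-null library, beside 3.49% of all genes. It was 18.6 CPM in SP3-null and 12.6 CPM in wild-type cells, at 0.56 (0.40 to 0.72). Mxd3 of the same family was the 1 gene counted lower, at -0.36 (-0.58 to -0.13), beside 8.1% of all genes. Max itself was at 0.21 (0.10 to 0.32). Of 14 measured p53 targets 0 were counted higher and 4 lower in the SP3-null library, beside 3.49% of all genes higher and 8.1% lower. Their median was -0.14. Of 10 measured turnover genes of G1 regulators 1, Fbxo4, was counted lower (-0.41, -0.72 to -0.10), near the 8.1% of all genes. The list median was -0.04. Of the 7 antiproliferative genes (median -0.02) and the 18 S phase genes (median -0.10, 15 of them below 0), 0 were counted, beside the same shares of all genes. How many of all genes lay below 0 was not taken. The Notch and connexin list had 3 of 8 members lower, beside 8.1% of all genes, and no member higher, beside 3.49%. Its Gja5 was at -0.64 (-0.75 to -0.53). Gja5 lay mostly in conflux AE (356 CPM in SP3-null, 377 CPM in wild-type cells) and pre-HE (572 CPM in SP3-null, 618 CPM in wild-type cells). These classes were smaller in the SP3-null library, with 145 against 188 conflux AE cells and 92 against 136 pre-HE cells. The part of class make-up in the Gja5 ratio was not tested.

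The members were also compared between cells with many and few cycle UMIs. In the endothelial sum the intervals of Cdkn1a, Cdkn1b, Ccnd2 and Cdk6 lay apart from 0 in both libraries. The share of all genes that did so was not taken, so this is a description and not a trait of the members. Cells thinned to 5000 UMIs were ranked by their summed UMIs of the S phase and mitosis lists within each library and class. The 1 in 3 with the most were set against the 1 in 3 with the fewest, which are ranges of a score and not cell types. Cdkn1a was lower in the cells with the most cycle UMIs, 49.3 against 83.8 CPM in SP3-null cells (log2 -0.77, -1.05 to -0.49) and 34.0 against 62.0 CPM in wild-type cells (-0.86, -1.19 to -0.54). Within Wnt-high AE alone the difference was -0.88 (-1.21 to -0.56) in SP3-null and -1.09 (-1.50 to -0.68) in wild-type cells. Cdkn1b ran the opposite way to Cdkn1a, at 0.55 (0.13 to 0.98) in SP3-null and 0.80 (0.38 to 1.23) in wild-type cells.

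Ccnd2 was lower in the cells with the most cycle UMIs, at -0.46 (-0.72 to -0.21) in SP3-null and at -0.70 (-0.93 to -0.48) in wild-type cells, and Cdk6 was higher, at 0.87 (0.30 to 1.46) in SP3-null and 0.57 (0.06 to 1.08) in wild-type cells. Ccnd1, Ccnd3, Cdk4, Ccne1 and Myc had intervals that spanned 0 in the endothelial sum of both libraries. Single classes could differ from the sum. Ccne1 was higher in the cells with the most cycle UMIs in SP3-null Wnt-high AE (2.74, 0.98 to 5.13) and wild-type HE (3.32, 0.51 to 8.76), on at most 20 UMIs a range. It was lower in wild-type Wnt-low VE (-1.55, -2.58 to -0.61) and in other endothelium, at -0.72 (-1.41 to -0.05) in SP3-null and -0.90 (-1.51 to -0.31) in wild-type cells. Ccnd1 was lower in SP3-null conflux AE (-1.10, -2.13 to -0.14) and higher in wild-type Wnt-low AE (0.46, 0.12 to 0.80). Against its sum, Ccnd2 was higher in SP3-null conflux AE (2.52, 0.97 to 4.52), on 23 against 4 UMIs. Before thinning, 58.2% of the Ccnd2 UMIs of that class and library lay in 4 cells with Fabp7 or Pantr1. The cycle ranges of Ccnd2, in single classes and in the endothelial sum, were not taken without such cells. Cdk6 was lower in SP3-null IAC (-1.74, -3.34 to -0.37), on 6 against 20 UMIs. Between 1 and 53 cells of a class and library had the score at which a range ended. In conflux AE and pre-HE the lower range ended at 3 UMIs.

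**Figure D5:**
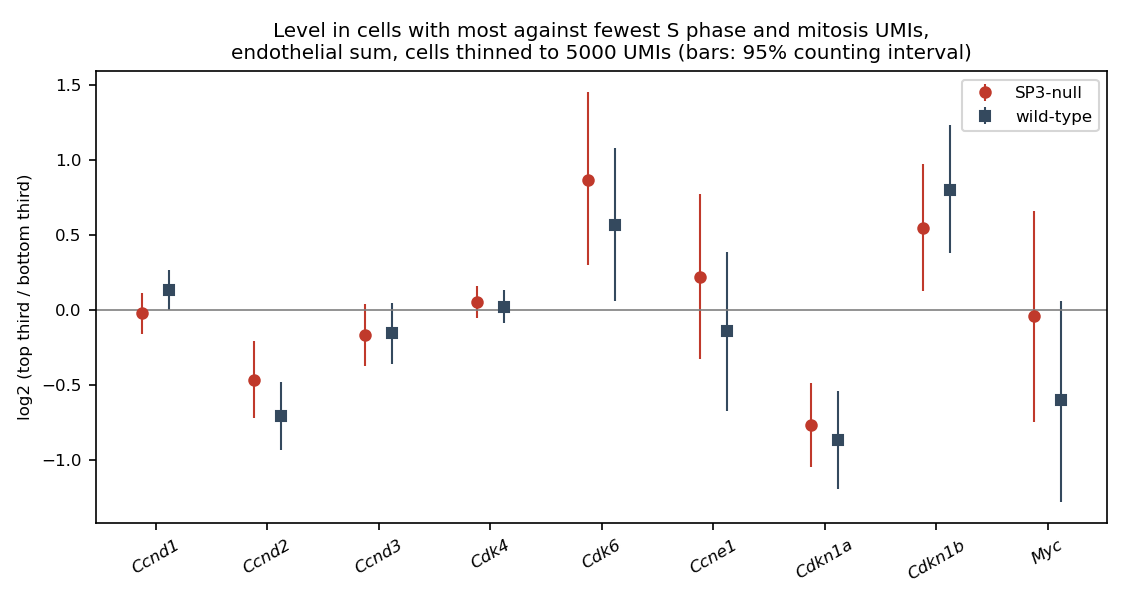
Log2 ratio of each gene's level in the cells with the most over the cells with the fewest summed S phase and mitosis UMIs, 1 in 3 cells of each class at either end, over the endothelial sum with cells thinned to 5000 UMIs; red circles are the SP3-null and dark squares the wild-type library, with 95% counting intervals, and the line marks no difference. Ccnd2 and Cdkn1a lie below 0, and Cdk6 and Cdkn1b above 0, in both libraries.

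The pattern of each gene over the 18 profiles of 9 classes in 2 libraries was compared with 8446 other genes by Pearson's r of log2(CPM + 10). These profiles share libraries and depth, and r is given as a description. Ccnd1 was most like Gng2 (0.97), Prelid2 and Ndufa4, and most opposite to Cd44 (-0.98), an adhesion receptor. Ccnd2 was most like Ddx24 (0.94), Abhd17c and Cdca7l. Ccnd3 was most like Ptp4a2 (0.89), Rnf4 and Drap1, and Cdk4 like the splicing factors Srsf7 (0.96), Hnrnpa1 and Srsf3. Cdk6 was most like Prtn3 (0.93), a protease of myeloid progenitors, Mrpl43 and Rac2, and Ccne1 like Rnf187 (0.95), Smarcc1 and Cd3eap. Cdkn1a was most like Foxf2 (0.95), Stra6 and Lrp8, Cdkn1b like Bach1 (0.88), Kdm7a and Mpnd, and Myc like Timm44 (0.92), Zc3h18 and Gadd45gip1. Among the 9 genes themselves, Ccnd2 and Ccne1 had the highest r (0.82) and Cdk6 and Cdkn1b the lowest (-0.75), and Ccnd1 and Ccnd2 stood at -0.66.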

How the data were processed

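Single-cell RNA-seq was analysed from 1 SP3-null and 1 wild-type library. Per the submitters' processing notes, the authors aligned the reads to mm10 (GRCm38) with Cell Ranger (version: not given in the sources used here). They removed barcodes under 1000 UMIs or 1000 genes. Each cell got its class by a vote of 3 nearest reference cells, a tie being settled by chance. The deposited matrices hold raw UMI counts. The deposited cell table also gives each cell's fraction of mitochondrial UMIs, used here as a limit in an alternative, and 2 other per-cell columns that were not used. A cell's matrix sum was short of its deposited total by 0 to 197 UMIs (0.145% overall), and 5 barcode sequences occurred in both libraries. A class with 1 wild-type cell entered only the sum over all cells.

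CPM is a gene's UMIs over all UMIs of the same library and class. Levels carry exact Poisson, ratios exact conditional and shares Clopper-Pearson intervals at 95%. Genes needed 200 UMIs over the cells compared, members of a list 50, and genes compared by pattern 1000. The 2 libraries were compared at 1.2-fold, classes at 1.5-fold. With no replicates, no test was made and no doublet caller was run. Steps were tested on simulated data.

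The 9 genes and the lists were chosen with earlier results of these data known. Named are the 9 genes and Sp3, from each list the 2 genes with most UMIs and those with the highest and lowest ratio, and for each of the 9 genes the 3 most alike. Genes named as counted in a class contrast, the opposite partner Cd44, and Fabp7 and Pantr1 were named after their values were seen. The lists were: other G1 cyclin and CDK genes (Ccne2, Cdk2, Ccnh, Cdk7, Mnat1, Cdc25a); other CDK inhibitors (Cdkn1c, Cdkn2a to Cdkn2d); retinoblastoma family, E2F and DP genes; MYC network (Mycn, Mycl, Max, Mxd1, Mxd3, Mxd4, Mxi1, Mnt, Mlx, Mga); nucleolar MYC targets; p53 targets; turnover of G1 regulators; antiproliferative genes; Notch and connexin genes; S phase and mitosis genes.

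Alternatives were edgeR 4.0.16 TMM and DESeq2 1.42.0 size factors for scaling only, equal weights per cell or class, other sets of cells, thinning to 5000 UMIs, at least 3000 UMIs per cell, a mitochondrial fraction of at most 0.1, removal of the 5% of cells with the most UMIs, other folds and another reference class. Leaving out cells with neural or macrophage transcripts or with the most UMIs of a gene, 3 more class contrasts and the immediate early list were added after seeing the data. Promoters are RefSeq GRCm38.p6, in which 6 of 9 genes matched; Ccnd1, Ccnd2 and Myc are named only. Software was Python 3.11.15, numpy 2.4.6, scipy 1.17.1, pandas 2.3.3, matplotlib 3.10.9 and R 4.3.3.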

Additional observations from a re-analysis of the deposited data

Results flagged for a closer look

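In 4 genes the SP3-null over wild-type ratio had a counting interval above 0 in one class and below 0 in another, and in each case the difference between the classes was not tested. Ccnd1 differed by 0.913 log2 units between HE (0.81, 0.03 to 1.62) and Wnt-high VE (-0.10, -0.17 to -0.02), and in HE its interval spanned 0 without cells holding Fabp7 or Pantr1 (0.83, -0.05 to 1.73). Ccnd2 differed by 0.935 log2 units between conflux AE (0.66, 0.34 to 0.98) and Wnt-low VE (-0.28, -0.38 to -0.17), and without those cells conflux AE was at -0.49. Cdk6 differed by 1.89 log2 units between pre-HE (1.37, 0.46 to 2.32) and Wnt-low AE (-0.52, -0.97 to -0.09). Cdkn1a differed by 1.90 log2 units between Wnt-high AE (0.38, 0.28 to 0.49) and HE (-1.52, -3.30 to -0.04), on 5 SP3-null and 18 wild-type UMIs in HE.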

How the results depend on the processing

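No paired analysis was possible because each genotype has 1 library. Of 144 single ratios of the 9 genes under 16 alternatives, 108 moved by less than their counting interval, 36 moved further, and no called ratio changed sign; over these alternatives Cdkn1a ranged between 0.25 and 0.71, Cdkn1b between 0.01 and 0.40 and Myc between -0.61 and -0.15, and each kept its sign in 16 of 16. Of 108 medians and counts, 91 stayed the same, which means within 1.5 times for counts. For medians it means inside the counting interval of the member with the middle ratio. The number of genes higher in the SP3-null library, 2, was 0 with each class weighted alike and at 1.5-fold, and 1 in VE alone, with cells thinned to 5000 UMIs and in the 1 in 3 cells with the fewest cycle UMIs. The number lower, 1, was 0 in VE alone, with other endothelium added, with thinned cells, with a mitochondrial fraction of at most 0.1 and at 1.5-fold, and 2 in AE alone and at 1.1-fold (Cdk6 and Myc both times) and without cells holding Fabp7 or Pantr1 (Ccnd2 and Myc). With Wnt-low AE as the reference, the number lower was 0 in VE, 1 in conflux AE with pre-HE, 1 in HE and 2 in IAC (Ccnd1 and Cdkn1b), and with thinned cells the number higher in HE was 1 (Ccnd2; Ccne1 was lost and lay below AE in SP3-null cells). Causes were not tested, except that the Wnt-low reference leaves out the cells with most Cdkn1a. Intervals treat UMIs as independent and do not cover clustering in few cells, so ratios of sparse genes in HE, pre-HE and conflux AE, on 3 to 35 UMIs, are less certain than their intervals.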
